A study of Mus musculus with 9 samples.

Results

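The subunits of the voltage-gated sodium channels, the voltage-gated calcium channels and the HCN pacemaker channels were followed in RNA sequencing libraries of mouse brain tissue, taken per the labels from the anterior part of the thalamic paraventricular nucleus (aPVT). These families, and the gene lists used below, were chosen with earlier results of these data known. Members were then taken by symbol: every row of the read-count table beginning with Scn or Hcn and a digit, with Cacna1, with Cacna2d, or with Cacnb and a digit. This gave 32 genes of the 18956 symbols in the table. They comprised 7 sodium channel pore subunits, 4 sodium channel beta subunits, 6 pore subunits of high-voltage calcium channels, 3 of T-type calcium channels, 4 alpha2delta subunits, 4 calcium channel beta subunits and 4 HCN subunits.

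All libraries came from BALB/c mice. Non-stressed mice given saline (NS_Saline) were set against mice put through 5 days of social defeat stress and given saline (smSDS_Saline, called stressed saline below) and against stressed mice given (2S,6S)-HNK (smSDS_SHNK, called SHNK below), a metabolite of the anaesthetic and antidepressant ketamine. Each group had 3 libraries. The age and sex of the mice, the dose and timing of the compound, and whether a library held 1 mouse or several are not stated in the labels. The p-values therefore measure the spread between these libraries, part of which may be technical.

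A sodium or calcium channel is built around 1 large pore protein, and the pore's identity sets the voltage at which it opens. Sodium channel pores start and carry the action potential, and their beta subunits tune gating and anchor the channel. High-voltage calcium channels (L, P/Q, N and R types) couple depolarization to transmitter release and gene expression, and they reach the membrane with the help of a cytoplasmic beta subunit and an extracellular alpha2delta subunit. T-type calcium channels open near the resting potential, and HCN channels carry a cation current that is switched on by hyperpolarization. In thalamic neurons these last families act together: a T-type calcium spike drives a burst of action potentials when the cell is released from hyperpolarization, and HCN current helps to set the resting potential and pace the rhythm.

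Library totals ran from 32307869 to 51569143 counts, and the lowest count of any channel gene in any library was 14. Levels are given as CPM, the usual depth-scaled read count, after TMM scaling in edgeR, listed in the order of replicates 1, 2 and 3, and means carry the SD over n = 3 libraries. Fold changes are log2 values with their standard errors from edgeR's quasi-likelihood model of all 9 libraries. Adjusted p-values are Benjamini-Hochberg values over the 18194 genes tested, all 32 channel genes among them, with a threshold of 0.05. "Rose" and "fell" are used for genes past it.

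Markers of glutamatergic aPVT neurons (11 of 11 listed) had a summed level of 2709 to 3098 CPM in non-stressed, 2475 to 3096 in stressed saline and 2566 to 2917 in SHNK libraries. Calb2 made up most of that sum (1910 to 2132 CPM in non-stressed libraries). In SHNK against stressed saline the median difference of the 11 was -0.32, 6 had an unadjusted p under 0.05 and 1, Npffr1, fell. Of all genes tested, 2.45% rose, 3.96% fell and 23.3% had an unadjusted p under 0.05 in that comparison. In stressed against non-stressed saline 1.15% of all genes rose and 0.0165% fell. Markers of a neighbouring region, the habenula, moved with the groups. For the 10 of 13 listed habenula genes in the table, the summed level was 104, 100.2 and 159 CPM in non-stressed saline, 273, 811 and 471 in stressed saline, and 73.9, 66.5 and 81.7 in SHNK libraries. Of these 10 genes, 9 rose in stressed against non-stressed saline and 10 fell in SHNK against stressed saline. Ependymal and cilia markers (10 of 10 listed) ran from 101 to 122 CPM in non-stressed, 188 to 282 in stressed saline and 109 to 164 in SHNK libraries. Markers of other thalamic relay nuclei (12 of 12 listed) ran the other way, from 2405 to 2607, from 2130 to 2254 and from 2682 to 3161 CPM, and 7 of them rose in SHNK against stressed saline. Astrocyte markers (10 of 10 listed) ran from 4605 to 4803 CPM in non-stressed, 3996 to 5199 in stressed saline and 3593 to 3874 in SHNK libraries; Gfap and Aqp4 rose with stress, and 5 fell in SHNK against stressed saline. Choroid plexus markers (8 of 9 listed) ran from 41.9 to 54.4, from 62.3 to 99.6 and from 61.0 to 88.7 CPM, with 2 that rose with stress and 3 that fell in SHNK. No symbol in the table had a count of 0 in any library. A listed gene found there was thus counted in every library, and its presence does not tell the groups apart. Whether the listed genes missing from the table had a 0 is not known. Stressed saline replicate 2 stood highest in habenula and ependymal markers, and the calls of channel genes in SHNK against stressed saline are given with and without it. In such bulk tissue, fewer cells of a type and less RNA per cell cannot be told apart.

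**Figure D1:**
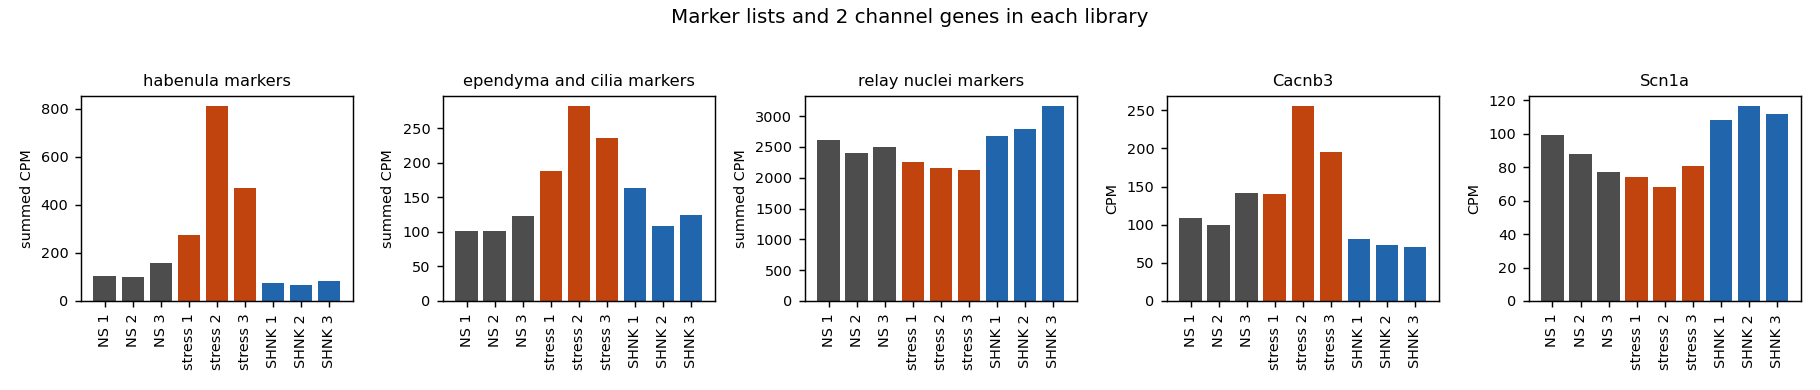
Summed level of the habenula, ependymal and relay nuclei marker lists and the level of Cacnb3 and Scn1a (vertical axes, CPM) in each of the 9 libraries (horizontal axis; grey non-stressed saline, orange stressed saline, blue SHNK). Habenula markers and Cacnb3 are both highest in stressed saline replicate 2 (811 and 255 CPM), while relay nuclei markers and Scn1a are each higher in all 3 SHNK libraries than in any stressed saline library.

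Levels of different genes were compared per kilobase of the longest coding transcript, since long genes collect more reads. In the non-stressed libraries Cacnb3 was the most abundant calcium channel beta subunit, at 42.8 ± 8.11 CPM per kb. Among sodium channel pores Scn2a led with 14.1 ± 1.12 CPM per kb and Scn1a followed with 10.5 ± 1.30. The sodium-sensing channel Scn7a stood at 0.161 CPM per kb.

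Within the burst channels the per-kilobase levels were led by Hcn2 (19.3 ± 8.16 CPM per kb) and by the T-type pore Cacna1g (7.43 ± 0.337). Hcn3 stood at 5.35 ± 0.429 and Hcn4 at 2.40 ± 0.228 CPM per kb. The other T-type pores were lower on this scale, Cacna1i at 0.624 ± 0.0406 and Cacna1h at 0.335 ± 0.0846. The ranks of Cacna1i and of the sodium channel pore Scn8a depend on which transcript supplies the length. With the median coding transcript Cacna1i stood at 10.4 and Scn8a at 27.3 CPM per kb, against 5.03 ± 0.101 for Scn8a with the longest. The median was 586.5 bases for Cacna1i and 2110 for Scn8a, and the longest 9781 and 11436. The higher values come from these short medians and are not read as abundance.

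Stressed and non-stressed saline libraries were compared first. By edgeR's quasi-likelihood test 0 of the 32 channel genes passed the threshold, beside 1.17% of all genes tested (1.15% called higher and 0.0165% called lower). At an unadjusted p under 0.05 there were 14 channel genes, 4 of them higher and 10 lower with stress, against 9.45% of all genes (6.08% higher and 3.37% lower), and for 10 of the 32 the groups did not overlap, against 12.9% of all genes. The median difference of the 32 was -0.14, with 12 of the 32 above 0 beside 45.5% of all genes, and that of all genes was -0.02. DESeq2 called 1 channel gene, Cacnb3, and voom in limma called 0.

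The SHNK and stressed saline libraries differed in more channel genes. Here 9 of the 32, or 28.1%, passed the threshold, beside 6.41% of all genes tested. Cacna2d1, Cacna2d3, Cacnb4 and Scn1a rose, 4 genes beside 2.45% of all genes called higher. Cacnb3, Cacna1s, Cacna1e, Cacna2d2 and Hcn3 fell, 5 genes beside 3.96% called lower. The groups did not overlap for 15 of the 32, against 30.4% of all genes, and the median of the 32 was 0.02 with that of all genes at -0.01. Of the 32, 17 differences were above 0, beside 48.7% of all genes. Without stressed saline replicate 2 the count was 3 (Cacnb3, Scn1a and Cacna1s), and without SHNK replicate 2 or replicate 3 it was 2 (Cacnb3 and Scn1a). The count over all genes went from 1167 to 367, 238 and 176 when these libraries were left out, in the same order. Both comparisons share the stressed saline libraries, so their fold changes are set side by side and no relation between them is drawn.

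**Figure D2:**
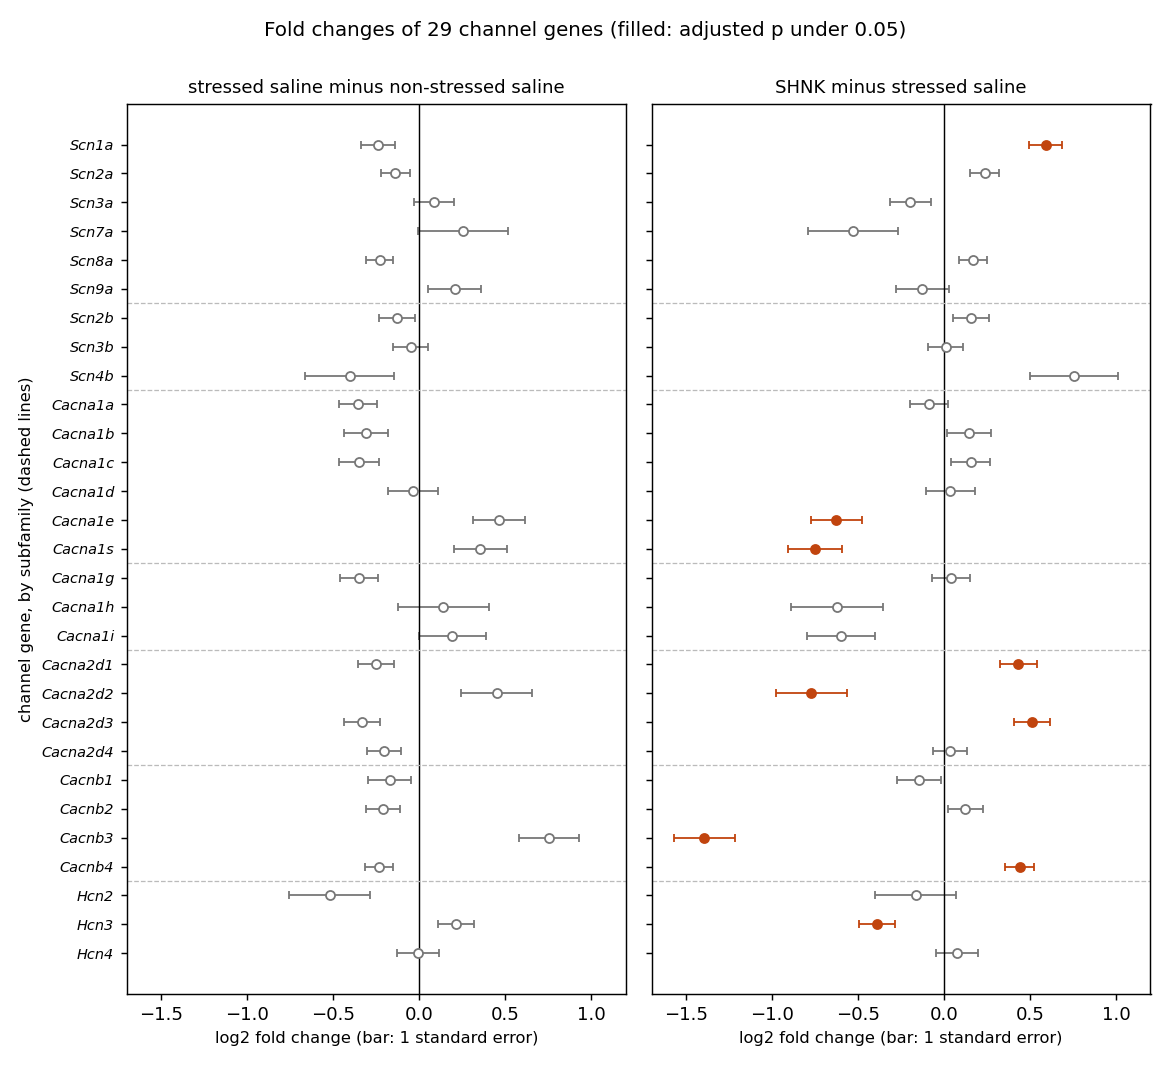
Log2 fold change of 29 channel genes (horizontal axis, bar 1 standard error) for stressed against non-stressed saline on the left and SHNK against stressed saline on the right, with genes grouped by subfamily (vertical axis, dashed lines). Filled points passed an adjusted p of 0.05: there are 0 on the left and 9 on the right, from Cacnb3 at -1.39 to Scn1a at 0.59.

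The calcium channel beta subunits held both the gene with the smallest adjusted p of all 32 and a sister gene that moved in the opposite direction. Because the 2 genes differ in direction, the 100 bases before starts given for them in the RefSeq promoter table (GRCm38.p6, 5′ to 3′ on the gene's strand) are shown, with GC boxes (GGGCGG or its complement CCGCCC) in capitals. That table holds 2 starts for Cacnb3 and 3 for Cacnb4, and the counts are per gene and do not tell starts apart. The starts shown lie inside the RefSeq gene spans, 3892 and 6331 bases from the 5′ end for Cacnb3 and 466 bases for Cacnb4, so they are not the outermost starts of the genes.
Cacnb3, first start in the table, chr15:98632228-98632327, plus strand: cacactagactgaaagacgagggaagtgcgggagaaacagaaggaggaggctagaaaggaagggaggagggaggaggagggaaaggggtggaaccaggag
Cacnb3, second start in the table, chr15:98634667-98634766, plus strand: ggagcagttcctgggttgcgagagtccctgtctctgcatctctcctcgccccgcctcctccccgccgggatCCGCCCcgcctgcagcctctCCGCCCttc
Cacnb4, first start in the table, chr2:52676144-52676243, minus strand: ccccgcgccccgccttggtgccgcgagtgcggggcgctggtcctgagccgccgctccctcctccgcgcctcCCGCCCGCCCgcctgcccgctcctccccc
The first Cacnb3 stretch held 2 CpG dinucleotides and no GC box, the second 8 CpG and 2 GC boxes, and the Cacnb4 stretch 15 CpG and 2 GC boxes that overlap. The stretches before the other Cacnb4 starts, not shown, held 9 and 1 CpG and no GC box. Over the 250 bases before each gene's most upstream start in the table, a GC box on either strand was found for 11 of the 22 channel genes in the RefSeq promoter table and in 33.0% of all 27025 promoters. The TATA motif TATAAA was found for 1 of the 22 (Cacna1d) and in 13.0% of all promoters. The E-box CACGTG (6.04% of all) and the cyclic AMP response element TGACGTCA (1.6% of all) were found for 0 of the 22. The median number of CpG in the window was 16 for the 22 genes and 6 for all promoters. A match is a description of these letters only.

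Cacnb3 (chr15:98628436-98644536, GRCm38.p6) encodes a cytoplasmic beta subunit that carries high-voltage calcium channels to the membrane. Its level was 109, 100.1 and 142 CPM in non-stressed saline, 141, 255 and 196 in stressed saline, and 81.1, 73.4 and 70.5 in SHNK libraries. The 3 SHNK libraries lay below all other libraries, and stressed saline replicate 2 was the highest of the 9. It fell 2.63-fold in SHNK against stressed saline (-1.39 ± 0.18, adjusted p = 0.000909 by edgeR's quasi-likelihood test), the largest fold change among the 32 channel genes in that comparison. Without stressed saline replicate 2 the difference was -1.16 with an adjusted p of 0.00213, and the call held without each of the 9 libraries in turn. Against non-stressed saline the stressed saline level was 1.69-fold higher, with groups that just overlapped and an adjusted p of 0.0538. That value passed with DESeq2 (adjusted p = 0.00112), with upper-quartile scaling (0.0369), without non-stressed replicate 3 (0.0293) and without stressed saline replicate 1 (0.00421). With each of the other 7 libraries left out in turn it did not pass, at 0.52 and an adjusted p of 0.296 without stressed saline replicate 2. The habenula markers were also highest in stressed saline replicate 2 and lowest in the SHNK libraries, and their part in the Cacnb3 result was not tested.

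Cacnb4 (chr2:52428320-52676609) encodes the beta subunit whose loss causes the absence seizures of the lethargic mouse. Its level was 130.3, 119.5 and 119 CPM in non-stressed saline, 112, 98.7 and 103 in stressed saline, and 131, 145 and 149 in SHNK libraries, so the 3 groups did not overlap. It rose 1.36-fold in SHNK against stressed saline (0.44 ± 0.08, adjusted p = 0.00934), and the stressed saline mean was below the non-stressed one by an amount that did not pass (-0.24 ± 0.08, adjusted p = 0.281). Without stressed saline replicate 2, SHNK replicate 2 or SHNK replicate 3 the adjusted p was 0.0511, 0.0564 or 0.0591. Exons of the antisense gene A430018G15Rik cover 15.99% of the exonic bases of Cacnb4, and whether the counting used strand is not stated in the labels. The relay nuclei markers were likewise higher in SHNK than in stressed saline libraries, and their part here was not tested.

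The remaining beta subunits did not pass in any comparison. Cacnb1, the beta subunit also found in skeletal muscle, averaged 39.2 ± 7.20, 34.8 ± 2.19 and 31.5 ± 3.46 CPM in non-stressed, stressed saline and SHNK libraries. Cacnb2, the main cardiac beta subunit, averaged 43.3 ± 5.87, 37.4 ± 0.761 and 40.8 ± 1.504 CPM. Their adjusted p-values ran from 0.202 to 0.806.

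The make-up of the beta subunits was taken as each gene's share of their summed CPM per kilobase. Shares add up to a fixed total, so a higher Cacnb3 share lowers the others. Cacnb3 made up 53.1% ± 3.05 of the total in non-stressed, 68.1% ± 6.72 in stressed saline and 42.7% ± 1.69 in SHNK libraries, and its 3 groups did not overlap, with stressed saline replicates 1 and 3 at 60.9% and 69.4%. The Cacnb4 share was 18.9% ± 2.73, 12.6% ± 3.30 and 26.8% ± 2.62 in the same order, with stressed saline replicates 1 and 3 at 16.1% and 12.1%. With the median coding transcript as the length, the mean Cacnb3 share was 44.9%, 60.6% and 35.7%, in the same order of groups.

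**Figure D3:**
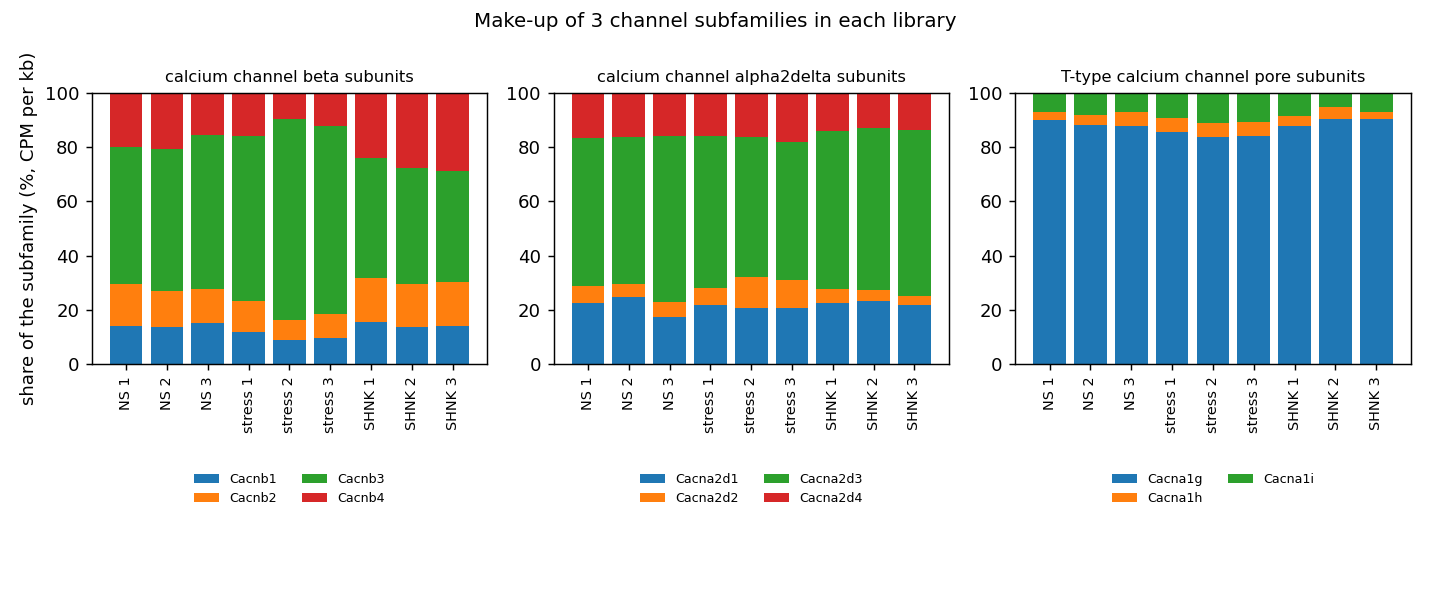
Share of each gene (vertical axis, percent of the subfamily's summed CPM per kilobase of the longest coding transcript) in the 9 libraries (horizontal axis) for the calcium channel beta, alpha2delta and T-type pore subunits. Cacnb3 takes 60.9% to 74.1% of the beta subunits in stressed saline and 41.0% to 44.4% in SHNK libraries, and Cacna1g takes 83.5% to 90.5% of the T-type pores over the 9 libraries.

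The alpha2delta subunits, extracellular proteins that raise the number of calcium channels at the surface, also split in direction: of 4 genes, 2 rose, 1 fell and 1 did not pass in SHNK against stressed saline. Cacna2d3 was measured at 49.7, 44.0 and 56.8 CPM in non-stressed saline, 44.4, 37.3 and 37.6 in stressed saline, and 55.3, 57.1 and 57.8 in SHNK libraries. All SHNK values lay above all stressed saline values, and it rose 1.43-fold (0.51 ± 0.10, adjusted p = 0.0139). Cacna2d1, a subunit that binds gabapentin, stood at 41.1, 40.3 and 32.4 CPM in non-stressed saline, 34.9, 29.7 and 30.8 in stressed saline, and 43.0, 44.5 and 41.3 in SHNK libraries. Its SHNK libraries were above every other library, and it rose 1.35-fold over stressed saline (0.43 ± 0.11, adjusted p = 0.0296).

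Cacna2d2, whose loss gives the ataxic ducky mouse, went the other way. Its level was 9.08, 6.55 and 8.12 CPM in non-stressed saline, 7.75, 13.0 and 11.8 in stressed saline, and 7.76, 6.19 and 5.05 in SHNK libraries. Stressed saline replicates 2 and 3 were high, and replicate 1 lay inside the range of the SHNK libraries. It fell 1.71-fold (-0.77 ± 0.21, adjusted p = 0.0423). None of the 4 passed in stressed against non-stressed saline, where the differences were -0.34 for Cacna2d3, -0.25 for Cacna2d1 and 0.45 for Cacna2d2. The fourth, Cacna2d4, a subunit of retinal channels, averaged 22.8 ± 1.54, 19.8 ± 1.21 and 20.3 ± 0.689 CPM across the 3 groups.

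Each of these 3 calls was lost without stressed saline replicate 2, where the differences were 0.47 for Cacna2d3 (adjusted p = 0.0653), 0.38 for Cacna2d1 (0.113) and -0.62 for Cacna2d2 (0.155). They were also lost without SHNK replicate 2 or replicate 3, Cacna2d1 and Cacna2d2 without stressed saline replicate 3 as well, and Cacna2d1 without SHNK replicate 1. Cacna2d2 in addition missed the threshold with voom (0.0532) and with no filter on low counts (0.0515).

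Among the 6 high-voltage calcium channel pores, 2 genes of low level fell in SHNK against stressed saline and 4 did not pass. Cacna1s, the L-type voltage sensor of skeletal muscle, was at 7.89, 8.21 and 6.57 CPM in non-stressed saline, 9.28, 8.97 and 10.8 in stressed saline, and 6.56, 5.85 and 4.78 in SHNK libraries. Its stressed saline libraries were the highest of the 9 and its SHNK libraries the lowest, and it fell 1.68-fold (-0.75 ± 0.16, adjusted p = 0.0147). Without stressed saline replicate 2 the difference was -0.80 (adjusted p = 0.0390), and the call was lost without SHNK replicate 2 or replicate 3 (highest adjusted p 0.0885). Exons of the antisense gene Gm37759 cover 19.98% of the exonic bases of Cacna1s.

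Cacna1e, the R-type pore, was at 9.71, 11.1 and 9.42 CPM in non-stressed saline, 11.8, 17.3 and 12.5 in stressed saline, and 9.40, 8.47 and 9.12 in SHNK libraries. Stressed saline replicate 2 stood apart at the top. Cacna1e fell 1.54-fold (-0.63 ± 0.15, adjusted p = 0.0270). Without stressed saline replicate 2 the difference was -0.43 and the adjusted p 0.118, and the call was also lost without SHNK replicate 2 or replicate 3. For both genes the habenula and ependymal markers were highest in the same group, stressed saline, and their part was not tested. Both marker lists were highest in replicate 2 of that group. There Cacna1e was the highest of the group (17.3 CPM) and Cacna1s the lowest (8.97 CPM).

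Cacna1a, the P/Q-type pore of presynaptic terminals, was highest in the non-stressed libraries, at 24.3, 20.6 and 23.4 CPM, against 18.8, 16.9 and 17.7 in stressed saline and 16.3, 18.5 and 15.4 in SHNK libraries. The non-stressed libraries lay above all 6 others, but the difference did not pass for stressed saline (-0.36 ± 0.11, adjusted p = 0.182) or for SHNK (-0.44 ± 0.11, adjusted p = 0.0852). The SHNK value passed with DESeq2 (0.0115) and without non-stressed replicate 2 (0.0351). The N-type pore Cacna1b averaged 17.2 ± 1.86, 13.9 ± 1.64 and 15.3 ± 1.61 CPM in the 3 groups, and the neuronal and cardiac L-type pore Cacna1c 15.5 ± 1.36, 12.2 ± 0.658 and 13.6 ± 1.03. For both, stressed and non-stressed libraries did not overlap, with adjusted p-values of 0.431 and 0.224. Cacna1d, the L-type pore that opens at lower voltages, averaged 7.78 ± 0.716, 7.57 ± 0.447 and 7.76 ± 1.05 CPM.

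One of the 7 sodium channel pores rose in SHNK against stressed saline. Scn1a, the pore whose loss of function causes Dravet epilepsy, was at 99.0, 87.6 and 77.2 CPM in non-stressed saline, 74.1, 68.3 and 80.8 in stressed saline, and 108, 116 and 111 in SHNK libraries. The SHNK libraries lay above the 6 others, while the stressed and non-stressed libraries overlapped. It rose 1.51-fold (0.59 ± 0.10, adjusted p = 0.00525), and the call held without each of the 9 libraries in turn, at 0.53 and an adjusted p of 0.0336 without stressed saline replicate 2. Against non-stressed saline the SHNK level was higher by 0.35 ± 0.10, with an adjusted p of 0.105 in edgeR and 0.0232 in DESeq2. Scn1a and the relay nuclei markers were both higher in every SHNK library than in any stressed saline library, and the part of those markers in the Scn1a result was not tested.

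Scn1a lies in a cluster of 5 sodium channel pore genes on chromosome 2 (GRCm38.p6), in the order Scn3a (start 65457118), Scn2a, Scn1a (chr2:66270781-66440837), Scn9a and Scn7a (end 66784910). Its neighbours in that cluster did not pass in SHNK against stressed saline. Scn2a, the pore of developing and mature excitatory axons, averaged 126 ± 10.03, 115 ± 2.66 and 135 ± 8.87 CPM in the 3 groups, with a difference of 0.24 ± 0.08 (adjusted p = 0.104). For Scn3a, the embryonic pore (-0.20), Scn9a, the pore of sensory neurons (-0.13), and Scn7a (-0.53), the fitted differences were below 0 (adjusted p = 0.341, 0.679 and 0.245). The 100 bases before the RefSeq start of Scn1a are shown because it is the cluster's gene that passed, and they held 2 CpG and no GC box.
Scn1a, chr2:66440838-66440937, minus strand: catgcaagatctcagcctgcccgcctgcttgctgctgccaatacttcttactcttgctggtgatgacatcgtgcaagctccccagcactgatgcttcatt

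Outside the cluster, Scn8a, the pore of the axon initial segment and nodes of Ranvier, averaged 57.6 ± 1.16 CPM in non-stressed, 49.0 ± 1.26 in stressed saline and 55.0 ± 3.58 in SHNK libraries. Its stressed saline libraries lay below the 6 others, at -0.23 ± 0.08 against non-stressed saline (adjusted p = 0.280) and with 0.17 for SHNK against stressed saline (adjusted p = 0.232).

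None of the 4 sodium channel beta subunits passed in any comparison. Scn4b, which supports resurgent sodium current, was at 4.82, 2.63 and 3.34 CPM in non-stressed saline, 2.25, 2.36 and 3.63 in stressed saline, and 5.03, 5.11 and 3.64 in SHNK libraries. Its SHNK libraries were above all stressed saline libraries, by 0.75 ± 0.26 with an adjusted p of 0.0947 in edgeR and 0.0311 in DESeq2, and by 0.66 (adjusted p = 0.243) without stressed saline replicate 2. Scn2b averaged 87.9 ± 11.7, 80.1 ± 8.23 and 89.1 ± 4.54 CPM, and Scn3b 67.1 ± 6.01, 64.8 ± 6.83 and 65.2 ± 5.34.

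**Figure D4:**
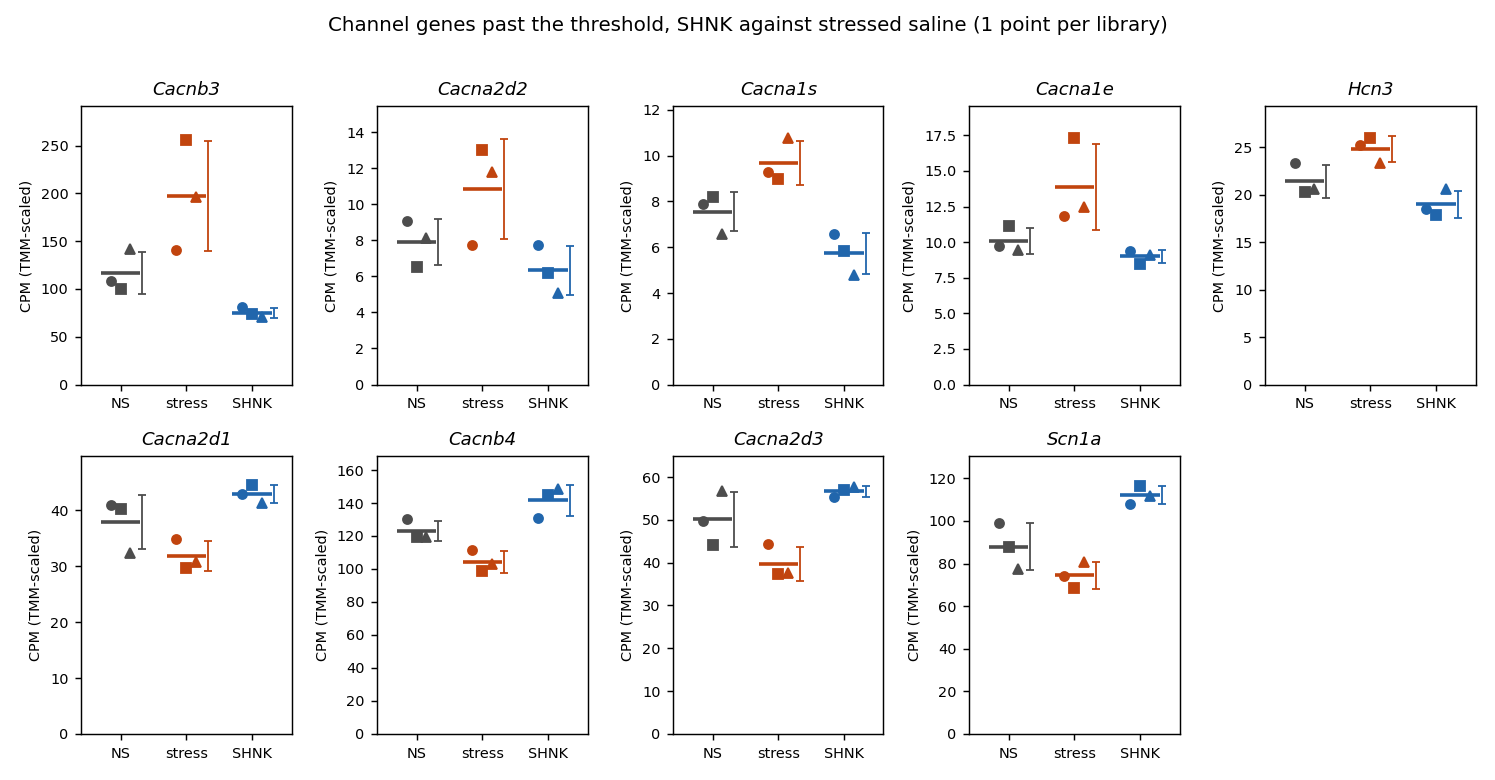
Level in each library (vertical axis, TMM-scaled CPM from 0) of the 9 channel genes that passed the threshold in SHNK against stressed saline, for non-stressed saline (NS), stressed saline (stress) and SHNK libraries (horizontal axis); circle, square and triangle are replicates 1, 2 and 3, the line is the mean and the bar 1 SD. The top row holds the 5 genes that fell and the bottom row the 4 that rose; SHNK and stressed saline libraries overlap for Cacna2d2 alone of the 9.

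The thalamic burst channels, 3 T-type pores and 4 HCN subunits, gave 0 calls of 7 in stressed against non-stressed saline, 1 of 7 in SHNK against stressed saline (Hcn3) and 0 of 7 in SHNK against non-stressed saline. The shares of all genes called were 1.17%, 6.41% and 0.0055%. At an unadjusted p under 0.05 there were 2, 3 and 2 of the 7, beside 9.45%, 23.3% and 18.3% of all genes. The dominant T-type pore of thalamic relay cells, Cacna1g (chr11:94408391-94474400), was at 64.5, 59.1 and 63.4 CPM in non-stressed saline, 50.4, 44.3 and 51.7 in stressed saline, and 55.2, 54.0 and 41.2 in SHNK libraries. All 6 libraries from stressed mice, with or without SHNK, lay below the 3 non-stressed ones. The differences did not pass: -0.35 ± 0.11 for stressed saline (adjusted p = 0.197) and -0.31 ± 0.11 for SHNK (adjusted p = 0.158) against non-stressed saline. The SHNK and stressed saline levels differed by 0.04 ± 0.11 (adjusted p = 0.868), by 0.16 without SHNK replicate 3 and by -0.02 without stressed saline replicate 2. The relay nuclei markers, unlike Cacna1g, had a higher summed level in every SHNK library than in any stressed saline library.

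The less abundant T-type pores showed another order. Cacna1i was at 5.79, 6.55 and 5.96 CPM in non-stressed saline, 6.33, 6.83 and 7.74 in stressed saline, and 6.25, 3.78 and 3.75 in SHNK libraries. SHNK replicate 1 stood apart from the other SHNK libraries. The SHNK minus stressed saline difference was -0.60 ± 0.20, with an adjusted p of 0.0874 in edgeR and 0.0309 in DESeq2. It was -0.88 without SHNK replicate 1 (adjusted p = 0.0121) and -0.61 without stressed saline replicate 2 (adjusted p = 0.166). Markers of reticular thalamus and other GABA neurons (9 of 10 listed) summed to 140, 139 and 113 CPM in non-stressed saline. They summed to 149, 120 and 156 CPM in stressed saline and to 184, 145 and 154 in SHNK libraries. Their SHNK level was thus also highest in replicate 1, and their part in the Cacna1i values was not tested. Cacna1h was at 2.32, 2.38 and 3.56 CPM in non-stressed saline, 3.16, 2.83 and 3.13 in stressed saline, and 2.27, 2.41 and 1.19 in SHNK libraries. Its SHNK libraries lay below the stressed saline ones (-0.62 ± 0.27), and the adjusted p was 0.175, or 0.249 at -0.67 without stressed saline replicate 2.

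Per kilobase of the longest coding transcript, Cacna1g made up 88.6% ± 1.06 of the T-type total in non-stressed, 84.3% ± 0.941 in stressed saline and 89.5% ± 1.495 in SHNK libraries. Its share was lower in the 3 stressed saline libraries than in the 6 others. These shares too add up to a fixed total. The mean Cacna1g level was 48.8 CPM in stressed saline and 50.1 in SHNK libraries. In the same order, Cacna1i averaged 6.97 and 4.59 CPM and Cacna1h 3.04 and 1.96. With the median coding transcript the mean Cacna1g shares were 41.9%, 33.2% and 44.1%, with the same order of groups. Cacna1i then had the largest mean share in each group. That large Cacna1i share comes from its median length of 586.5 bases, against 8050 for Cacna1g, and does not show it to be the more abundant pore.

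Hcn3 (chr3:89146775-89160284), an HCN pore with little response to cyclic AMP, was the burst channel gene that passed. It was at 23.4, 20.2 and 20.6 CPM in non-stressed saline, 25.2, 26.0 and 23.3 in stressed saline, and 18.4, 17.9 and 20.6 in SHNK libraries. The SHNK libraries lay below all stressed saline libraries and overlapped the non-stressed ones. Hcn3 fell 1.31-fold against stressed saline (-0.39 ± 0.10, adjusted p = 0.0403). The call was lost without any 1 of the 6 stressed saline and SHNK libraries (highest adjusted p 0.165, and -0.36 with 0.131 without stressed saline replicate 2). Exons of Pklr, on the opposite strand, cover 17.12% of the exonic bases of Hcn3. The habenula markers and 7 of the 10 ependymal markers fell in the same comparison, and their part in this difference was not tested.

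Hcn2 (chr10:79716634-79736108), a principal HCN pore of thalamic relay cells, was at 49.1, 44.1 and 91.5 CPM in non-stressed saline, 40.9, 34.3 and 53.8 in stressed saline, and 44.7, 38.6 and 31.4 in SHNK libraries. Non-stressed replicate 3 stood far above the rest. The stressed saline difference from non-stressed was -0.52 ± 0.23 (adjusted p = 0.505) and became -0.12 without that library. For SHNK against non-stressed saline it was -0.69 ± 0.24 (adjusted p = 0.146) and became -0.28.

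Hcn4, the pacemaker pore of the sinoatrial node that is also abundant in thalamus, was at 15.6, 13.1 and 15.5 CPM in non-stressed saline, 13.0, 15.9 and 15.1 in stressed saline, and 17.1, 14.2 and 14.9 in SHNK libraries. Its 3 groups overlapped, with differences of -0.01 ± 0.12 for stressed against non-stressed saline and 0.07 ± 0.12 for SHNK against stressed saline.

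**Figure D5:**
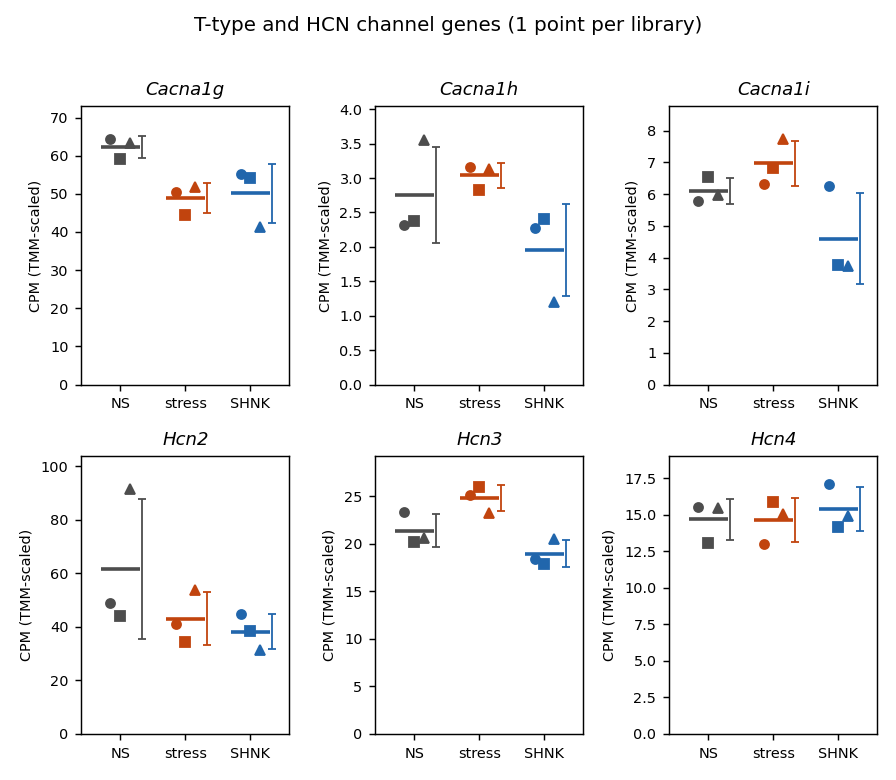
Level in each library (vertical axis, TMM-scaled CPM from 0) of the 3 T-type pores and of Hcn2, Hcn3 and Hcn4 in non-stressed saline (NS), stressed saline (stress) and SHNK libraries (horizontal axis); circle, square and triangle are replicates 1, 2 and 3, the line is the mean and the bar 1 SD. Cacna1g is highest in the 3 non-stressed libraries, Hcn3 is lower in SHNK than in stressed saline libraries, and non-stressed replicate 3 stands apart for Hcn2 at 91.5 CPM.

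SHNK libraries were last set against non-stressed saline, which asks where the treated stressed mice stood relative to unstressed ones. By edgeR's quasi-likelihood test 0 of the 32 channel genes passed, beside 0.0055% of all genes. At an unadjusted p under 0.05 there were 8, against 18.3% of all genes (7.31% higher and 11% lower). Of the 8, Cacnb4 and Scn1a were higher and Cacna1a, Cacna1g, Cacna1s, Cacnb1, Cacnb3 and Hcn2 lower. Of the 32 differences 10 were above 0, beside 49.2% of all genes. The groups did not overlap for 9 of the 32, against 21.3% of all genes. DESeq2 called 3 (Cacna1a, Cacnb3 and Scn1a) and voom 0. Cacnb3 was 1.56-fold lower in SHNK than in non-stressed libraries, with no overlap and an adjusted p of 0.0964 in edgeR, 0.0113 in DESeq2 and 0.0474 in edgeR without non-stressed replicate 2.

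In the test of any difference among the 3 groups, 6 of the 32 channel genes, or 18.8%, passed the threshold, beside 4.88% of all genes. They were Cacnb3 (adjusted p = 0.00251), Scn1a (0.0114), Cacnb4 (0.0215), Cacna2d3 (0.0295), Cacna1s (0.0339) and Cacna1e (0.0487). Cacna1a followed at 0.0515. No burst channel was among them, the closest being Hcn3 at 0.0846 and Cacna1g at 0.108.

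Genes that work with these channels were read from 4 lists. Of all genes, 2.45% rose and 3.96% fell in SHNK against stressed saline, and an unadjusted p under 0.05 against the non-stressed group was reached by 9.45% in stressed saline and 18.3% in SHNK. Of 20 sodium channel partners, 1 rose in SHNK against stressed saline: Fgf12, an intracellular factor that binds the tail of sodium channel pores, which averaged 195.6 ± 7.02, 176.9 ± 7.28 and 249 ± 31.0 CPM in non-stressed, stressed saline and SHNK libraries (0.50 ± 0.09, adjusted p = 0.00807, and 0.52 with 0.0298 without stressed saline replicate 2). The list gave 0 calls in the comparisons with non-stressed saline, with 1 and 5 genes at an unadjusted p under 0.05 for stressed saline and SHNK. Of 11 HCN channel partners, 1 rose, Vapa, a membrane protein of the endoplasmic reticulum (0.37 ± 0.08, adjusted p = 0.0203). Its call was lost without any of the 3 stressed saline libraries, SHNK replicate 2 or SHNK replicate 3. The HCN list gave 0 calls against non-stressed saline, with 2 and 2 genes at an unadjusted p under 0.05.

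Of 29 calcium channel partners, 4 rose and 1 fell in SHNK against stressed saline, and 0 passed in either comparison with non-stressed saline (7 and 6 at an unadjusted p under 0.05). Cabp1, a calmodulin-like protein that binds high-voltage calcium channels, averaged 2.76 ± 1.15, 7.26 ± 3.48 and 1.27 ± 0.310 CPM in the 3 groups. It fell 5.68-fold (-2.51 ± 0.38, adjusted p = 0.00352), with its highest level, 10.3 CPM, in stressed saline replicate 2, and the difference was -2.15 without that library (adjusted p = 0.0154). Calm2, a calmodulin gene (0.53 ± 0.10, adjusted p = 0.00934), and Snap25, a SNARE protein of transmitter release (0.52 ± 0.10, adjusted p = 0.0107), rose. Without stressed saline replicate 2 the adjusted p was 0.0447 for Calm2 and 0.0406 for Snap25, and the Snap25 call was lost without SHNK replicate 3.

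Of 17 partners of thalamic burst firing, 5 rose in SHNK against stressed saline, 1 fell in stressed against non-stressed saline, and 0 passed in SHNK against non-stressed saline, with 9 at an unadjusted p under 0.05. Plcb4, a phospholipase C (0.50 ± 0.09), and Kcnip4, an auxiliary subunit of A-type potassium channels (0.57 ± 0.10), rose, both with an adjusted p of 0.00743 (0.0350 and 0.0275 without stressed saline replicate 2). Kcnj3, a pore of G-protein-gated potassium channels, rose by 0.57 ± 0.11 (adjusted p = 0.0115), a call lost without stressed saline replicate 2 and without SHNK replicate 2 or replicate 3. The relay nuclei markers were higher in the same libraries, and their part in these differences was not tested.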

How the data were processed

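RNA from 9 libraries (3 groups of 3) was sequenced by the submitters. Total RNA was purified with a Direct-zol kit and made into libraries with SMARTer and TruSeq reagents, per the labels' protocols. The deposited table gives raw read counts, whole numbers, for each gene symbol. The submitters' processing notes name Trimmomatic 0.38, HISAT2, StringTie and the builds GRCm38 and mm10. What each tool did, and whether counting used strand, is not given in the sources used here, so reads of a gene and of an overlapping antisense gene cannot be told apart. The lowest count in the table was 1.

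Genes were kept with filterByExpr (minimum count 10, minimum total 15), which left out 762 of 18956. After TMM scaling, 1 quasi-likelihood model over the 3 groups was fitted in edgeR 4.0.16 (R 4.3.3), whose common biological coefficient of variation was 0.132. CPM divide counts by the scaled library size. Alternatives used DESeq2 1.42.0, voom in limma 3.58.1, other scalings and filters, each library left out and the replicate number as a block. No pair of libraries in a group agreed within counting noise (lowest chi-square per degree of freedom 14.0). Each such value pools the genes of a pair of libraries, so how the variation depends on abundance was not measured.

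Coordinates and promoters came from RefSeq for GRCm38.p6, where 32 genes matched the gene table and 22 the promoter table. Lengths and overlaps came from GENCODE M21.

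The channel genes, marker lists and partner lists were chosen with earlier results of these data known. Values per library were given for the burst channels, for genes past the threshold in a pairwise comparison and for the 8 smallest p-values of any difference. Partner genes past the threshold were named up to 4 per list and comparison by smallest p, and the Scn4b values per library were added after they were seen. Some channel and partner genes enter the counts but are not reported singly here.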

Additional observations from a re-analysis of the deposited data

How the results depend on the processing

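The count of channel genes past the threshold in SHNK against stressed saline (9) was 11 with DESeq2, 8 with voom, 8 with no filter on low counts and 11 at an adjusted p of 0.1. No fold change of a channel gene reversed while past the threshold, and no other scaling moved the median of all genes by more than 0.022. In stressed against non-stressed saline the channel count of 0 became 1 (Cacnb3) with DESeq2, with upper-quartile scaling, with a filter of 1 CPM and at an adjusted p of 0.1. In SHNK against non-stressed saline 0 became 3 with DESeq2 and 2 at an adjusted p of 0.1, and for any difference 6 became 11 and 10. Over all genes, the 213 calls of stressed against non-stressed saline became 473 with DESeq2 and 370 at an adjusted p of 0.1. The 1167 of SHNK against stressed saline became 1990 and 2182, and the 888 of any difference 2079 and 1802. The 1 call of SHNK against non-stressed saline became 989 with DESeq2, 520 at an adjusted p of 0.1, 9 with only the groups compared, and 0 with voom, with upper-quartile scaling, with no filter and with a filter of 1 CPM. The cause was not tested.

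Replicate numbers are shared between groups, but libraries with the same number did not deviate together (correlations from -0.100 to 0.106, 1 of 9 pairs over 0.1), so they were not taken as pairs. With the replicate block 7 channel genes passed in SHNK against stressed saline, Hcn3 (adjusted p = 0.0618) and Cacna2d2 (0.0645) being lost, 4 in any difference, and 6 of all genes in SHNK against non-stressed saline.

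Leaving out each library in turn gave 0 to 1 channel genes in stressed against non-stressed saline (40 to 306 of all genes), 2 to 9 in SHNK against stressed saline (176 to 1385), 0 to 2 in SHNK against non-stressed saline (0 to 749) and 1 to 7 in any difference (187 to 1492). Fewer libraries also leave fewer degrees of freedom.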
